A study of Mus musculus with 6 samples.

Results

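The enzymes that pass folate-bound carbon between serine, glycine and formate were examined in mouse liver tumors, as pairs of mitochondrial and cytosolic forms and together with the glycine cleavage system. The 10 members were picked by gene symbol from a deposited table of 30236 genes, with 7 mitochondrial members (Shmt2, Mthfd2, Mthfd2l, Mthfd1l, Aldh1l2, Gldc and Amt) and 3 cytosolic members (Shmt1, Mthfd1 and Aldh1l1). All 10 were listed in the table, and 10 of 10 passed the filter on low values that left 22677 genes for testing. The rule used names and no measured values, but the members were chosen with earlier results of these data known. The paper names folate and glycine metabolism among the pathways of its differentially expressed mitochondrial genes in these tumors. Shares of all genes set beside the members are therefore a description and no independent test.

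RNA was sequenced from 6 liver tumors of male C57BL/6 mice, 3 labelled WT and 3 labelled Top1mt -/- (called Top1mt-KO or KO here). Top1mt encodes the topoisomerase of mitochondria, and the KO mice are a constitutive line compared with WT littermates. Both genotypes had received diethylnitrosamine, a liver carcinogen, at postnatal day 14, and carbon tetrachloride, a liver toxin, for 14 weeks from 8 weeks of age, and their tumors were taken at 22 weeks of age. Each library is a piece of tumor in which hepatocyte-derived cells are mixed with others, so that fewer cells of a type and less RNA per cell cannot be told apart. Values are the authors' log2 expression values per gene, in which 1 unit is a 2-fold difference. The read depth of the libraries is unknown. The labels do not say that the tumors of a group came from different mice, so p-values measure the spread between these samples.

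Tetrahydrofolate carries carbon units at several oxidation states. In mitochondria, SHMT2 moves a carbon from serine onto folate, MTHFD2 or MTHFD2L oxidizes it, and MTHFD1L releases it as formate, which leaves for the cytosol. There MTHFD1 and SHMT1 catalyze the matching steps, and the carbon is used for purines, thymidylate and methyl groups. ALDH1L1 in the cytosol and ALDH1L2 in mitochondria burn the formyl carbon to CO2 while making NADPH. The glycine cleavage system, with GLDC and AMT among its subunits, breaks glycine down in mitochondria and loads its carbon onto the same folate pool, and liver is one of its main sites.

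Some libraries stood apart before any member was considered. Top1mt itself was 7.71 on the log2 scale in the library labelled WT replicate 1, 5.99 in WT replicate 2 and 8.01 in WT replicate 3, and 5.58, 6.41 and 6.32 in those labelled KO replicates 1, 2 and 3. The library labelled WT replicate 2 thus went against its label. It also lay among the KO libraries for Nnt, a gene picked after its values were seen. Nnt was 10.31, 11.62 and 10.06 in WT against 11.4, 11.67 and 11.6 in KO. The reason was not tested, and every direction given here rests on the labels. In the library labelled KO replicate 1 the transcript Gm42418 took 17.7% of the summed linear values, against 0.0199% to 0.387% in the other libraries. Log2 fold changes of the members are therefore also given without each of these libraries. Hepatocyte markers were high in every library, with a summed log2 level of 20.58 to 21.29 in WT and 20.85 to 21.4 in KO over 6 genes. Alb, at 20.26 to 21.12, made up most of that sum, so it says little of the other markers. Hnf4a, for example, was at 13.02 to 13.54.

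Across the 22677 genes tested, limma called 0 between the libraries labelled KO and WT at an adjusted p under 0.05. At an unadjusted p under 0.05 it called 985 (4.34%), and there were 1877 (8.28%) whose groups did not overlap. The paper, with DESeq2 on counts, reports a signature of differentially expressed genes between these genotypes. Without counts that analysis could not be repeated here, so the 2 results come from unlike methods. Among the 10 members, limma called 0 at an adjusted p under 0.05. At an unadjusted p under 0.05 there were 3, Gldc and Amt higher and Mthfd1l lower in KO, against 1.79% of all genes higher and 2.56% lower. Groups did not overlap for 1 of the 10, Gldc, against 3.95% of all genes without overlap and higher in KO and 4.33% without overlap and lower. Means were higher in KO for 5 members and lower for 5, with a median log2 fold change of 0.035 against -0.015 over all genes tested.

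Regulatory sequence is shown for the 3 members with the highest log2 fold changes, Gldc, Mthfd2 and Amt, as the stretch just upstream of the RefSeq start on GRCm38.p6, written 5′ to 3′ on the gene's strand. The Gldc stretch is chr19:30175442-30175691 on the minus strand. That of Mthfd2 is chr6:83317607-83317854 on the minus strand, and that of Amt is chr9:108296655-108296869 on the plus strand, both ending where an exon of the GENCODE M21 basic transcripts begins. The Mthfd2 stretch lies inside the annotated span of that gene, chr6:83305691-83325908, and the last bases of the Amt stretch lie inside that of Amt, which starts at 108296853. Capitals mark CCAAT on either strand, read as ATTGG on the strand shown, the letters known as the CCAAT box.
Gldc: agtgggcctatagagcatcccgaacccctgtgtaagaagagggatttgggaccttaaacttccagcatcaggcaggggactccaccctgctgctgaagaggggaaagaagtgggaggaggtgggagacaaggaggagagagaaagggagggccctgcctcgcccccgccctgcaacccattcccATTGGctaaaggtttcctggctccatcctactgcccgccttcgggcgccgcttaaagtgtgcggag
Mthfd2: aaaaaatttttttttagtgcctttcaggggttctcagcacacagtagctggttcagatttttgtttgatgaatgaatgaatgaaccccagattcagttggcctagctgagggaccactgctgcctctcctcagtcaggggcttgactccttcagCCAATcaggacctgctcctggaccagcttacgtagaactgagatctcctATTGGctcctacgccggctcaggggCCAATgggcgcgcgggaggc
Amt: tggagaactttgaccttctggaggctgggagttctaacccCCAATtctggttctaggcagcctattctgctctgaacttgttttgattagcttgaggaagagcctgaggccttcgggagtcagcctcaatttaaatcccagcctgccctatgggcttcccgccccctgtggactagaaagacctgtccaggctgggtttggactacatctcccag
RefSeq windows of 300 bases, from 250 before to 50 after the start, were found for 9 members, all but Aldh1l2. The letters CCAAT, on either strand, were present in 6 of the 9 windows (Gldc, Mthfd2, Amt, Shmt1, Mthfd1 and Aldh1l1), against 37.4% of all 32851 windows. The letters TGATGNAA, the core bound by ATF4 with C/EBP proteins, were in 0 of the 9 against 3.97%, and the E-box letters CACGTG were in 0 of the 9 against 7.15%. None of these letter strings contains another, and a match or its lack in this window is a description of letters only.

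Both glycine cleavage members had higher means in the libraries labelled KO than in those labelled WT. Gldc (ENSMUSG00000024827.10, chr19:30098447-30175429 on GRCm38, minus strand) encodes the glycine decarboxylase that removes CO2 from glycine. Gldc was at 11.06, 10.11 and 10.36 in the WT-labelled libraries, in order of replicate number. In those labelled KO replicates 1, 2 and 3 it was 11.21, 11.73 and 11.68. Every KO library lay above every WT library, but WT replicate 1 and KO replicate 1 were only 0.15 apart. Gldc averaged 10.51 ± 0.5 (SD, n = 3) over WT libraries and 11.54 ± 0.29 (SD, n = 3) over KO libraries. The log2 fold change of Gldc was 1.03, a fold of 2.04, with a standard error of 0.26 and a 95% confidence interval of 0.42 to 1.64. Its unadjusted p by limma was 0.00448 and its adjusted p by limma 0.987, and the exact two-sided permutation test gave p = 0.1, the smallest possible with 3 against 3. Without WT replicate 2 the log2 fold change of Gldc was 0.83, and without KO replicate 1 it was 1.2.

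Amt (chr9:108296853-108302302, plus strand) encodes the aminomethyltransferase that hands the remaining carbon to tetrahydrofolate. Amt was 8.66, 8.21 and 8.77 in WT against 8.74, 9.34 and 9.43 in KO. KO replicates 2 and 3 lay above all WT libraries, while KO replicate 1 lay 0.03 below WT replicate 3. Its log2 fold change was 0.63 (standard error 0.23, 95% confidence interval 0.089 to 1.16, adjusted p by limma 0.999), and the exact two-sided permutation test gave p = 0.2. That log2 fold change became 0.84 when KO replicate 1 was left out and 0.46 when WT replicate 2 was. For both genes WT replicate 2 was the lowest library of the 6.
The remaining subunits of the glycine cleavage system had smaller mean differences. Gcsh, the lipoyl carrier protein, was 10.08, 10.33 and 10.16 in WT against 10.56, 10.41 and 10.28 in KO, with a log2 fold change of 0.23 (95% confidence interval -0.089 to 0.54). Dld, the dihydrolipoamide dehydrogenase that also serves other mitochondrial complexes, was 10.32, 10.26 and 10.22 in WT against 10.06, 10.52 and 10.07 in KO, with a log2 fold change of -0.051 (95% confidence interval -0.42 to 0.31). Both overlapped between groups, and whether they differed from Gldc was not tested. Of the 5 partner and lipoylation genes (Gcsh, Dld, Lias, Lipt1 and Lipt2), 0 passed an adjusted or an unadjusted p under 0.05 by limma, with 3 higher and 2 lower in KO.

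**Figure D1:**
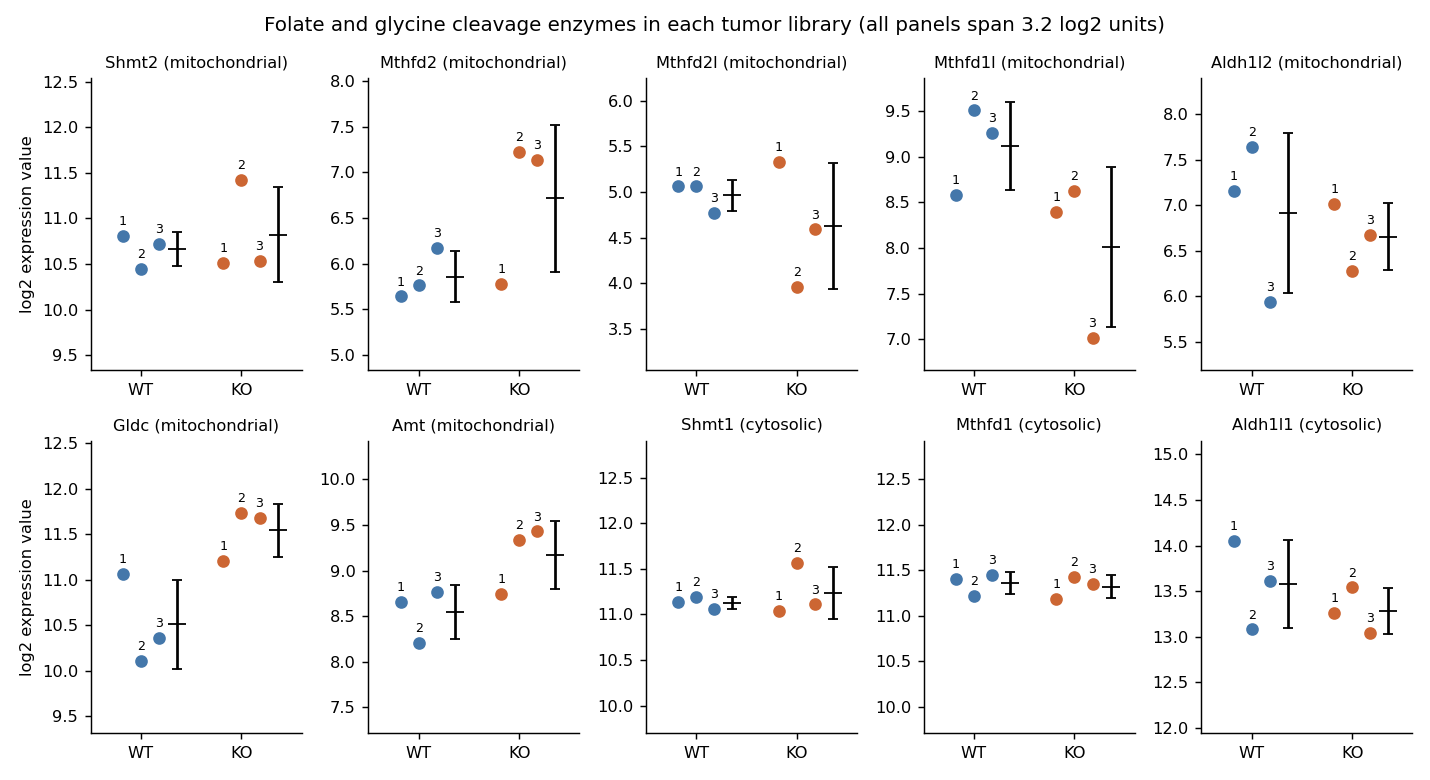
Log2 expression value (vertical axis) of each member in the 3 libraries labelled WT (blue) and the 3 labelled KO (orange), with replicate numbers above the points and the group mean ± SD in black. Gldc is the only panel without overlap between groups, and Shmt1 and Mthfd1 are the tightest, with ranges of 0.52 and 0.27 over the 6 libraries.

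The mitochondrial steps from serine to formate had mean differences of both signs. Shmt2, the serine hydroxymethyltransferase of mitochondria, was 10.81, 10.45 and 10.72 in WT against 10.51, 11.42 and 10.53 in KO. KO replicate 2 stood above the other 5 libraries, among which the genotypes were mixed. The log2 fold change of Shmt2 was 0.16 (95% confidence interval -0.43 to 0.75), and it turned to -0.14 without KO replicate 2. It was 0.055 without WT replicate 2 and 0.31 without KO replicate 1.
Mthfd2, the dehydrogenase and cyclohydrolase that is low in normal adult liver and is often raised in tumors, was 5.64, 5.76 and 6.17 in WT against 5.78, 7.22 and 7.14 in KO. KO replicates 2 and 3 were about 1 unit above the highest WT library, and KO replicate 1 lay among the WT libraries. The log2 fold change of Mthfd2 was 0.86, a fold of 1.81 (standard error 0.41, 95% confidence interval -0.091 to 1.81, adjusted p by limma 0.999; exact two-sided permutation test, p = 0.2). It was 1.32 without KO replicate 1, 0.81 without WT replicate 2 and 1.28 without both. Mthfd2l, a second mitochondrial dehydrogenase and cyclohydrolase, was 5.06, 5.06 and 4.77 in WT against 5.33, 3.96 and 4.59 in KO. The KO libraries took both the highest and the lowest place, and KO replicate 2, the library highest in Mthfd2, was the lowest in Mthfd2l. The log2 fold change of Mthfd2l was -0.34 (95% confidence interval -1.33 to 0.66), with -0.0022 without KO replicate 2, -0.69 without KO replicate 1 and -0.29 without WT replicate 2.

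Mthfd1l, the mitochondrial formyltetrahydrofolate synthetase that releases formate, had the most negative log2 fold change of the members and lies at chr10:3973118-4167081 on the plus strand. It was 8.58, 9.51 and 9.26 in WT against 8.4, 8.63 and 7.01 in KO. KO replicate 3 was lowest by a wide margin, and the groups overlapped by 0.045, where KO replicate 2 passed WT replicate 1. Mthfd1l averaged 9.12 ± 0.48 (SD, n = 3) over WT libraries and 8.01 ± 0.87 (SD, n = 3) over KO libraries. The log2 fold change of Mthfd1l was -1.1 (standard error 0.43, 95% confidence interval -2.1 to -0.11, unadjusted p 0.0334 and adjusted p 0.999 by limma), and the exact two-sided permutation test gave p = 0.2. Without KO replicate 3 it was -0.6, without WT replicate 2 it was -0.91 and without KO replicate 1 it was -1.3. Aldh1l2, the mitochondrial formyltetrahydrofolate dehydrogenase, was 7.16, 7.64 and 5.94 in WT against 7.01, 6.28 and 6.67 in KO. The 3 KO libraries lay within the spread of the WT libraries, and the log2 fold change of -0.26 (95% confidence interval -1.26 to 0.74) became 0.1 without WT replicate 2, -0.44 without KO replicate 1 and -0.75 without WT replicate 3. Aldh1l2 shares 1056 exonic bases with D10Wsu102e on the opposite strand, which had a mean log2 value of 9.52, and the strand setting of the counting is not given in the sources used here, so reads of that stretch cannot be assigned with certainty. Exons of Shmt2, Shmt1, Mthfd1 and Aldh1l1 also overlap opposite-strand genes (Ndufa4l2, Smcr8, Gm47525 and Gm15756).

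The cytosolic members were steadier for 2 of 3. Shmt1, the cytosolic serine hydroxymethyltransferase, was 11.14, 11.19 and 11.06 in WT against 11.04, 11.56 and 11.11 in KO (log2 fold change 0.11, 95% confidence interval -0.28 to 0.49). As with Shmt2, KO replicate 2 was the highest library, and the log2 fold change of Shmt1 was -0.055 without it, 0.14 without WT replicate 2 and 0.2 without KO replicate 1. Mthfd1, the trifunctional cytosolic enzyme, was 11.4, 11.22 and 11.45 in WT against 11.18, 11.43 and 11.35 in KO. All 6 values lay within 0.27, and its log2 fold change of -0.037 had the narrowest interval of the members (-0.36 to 0.29). It was -0.11 without WT replicate 2 and 0.033 without KO replicate 1. Aldh1l1, the cytosolic formyltetrahydrofolate dehydrogenase and a major liver folate enzyme, was 14.05, 13.08 and 13.61 in WT against 13.26, 13.54 and 13.04 in KO. WT replicate 2 was nearly as low as KO replicate 3, and the log2 fold change was -0.3 (95% confidence interval -0.95 to 0.35), with -0.067 without WT replicate 1, -0.55 without WT replicate 2 and -0.29 without KO replicate 1. The median range over the 6 libraries was 1.59 for the mitochondrial members and 0.52 for the cytosolic members. The part of expression level or compartment in this was not tested.

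**Figure D2:**
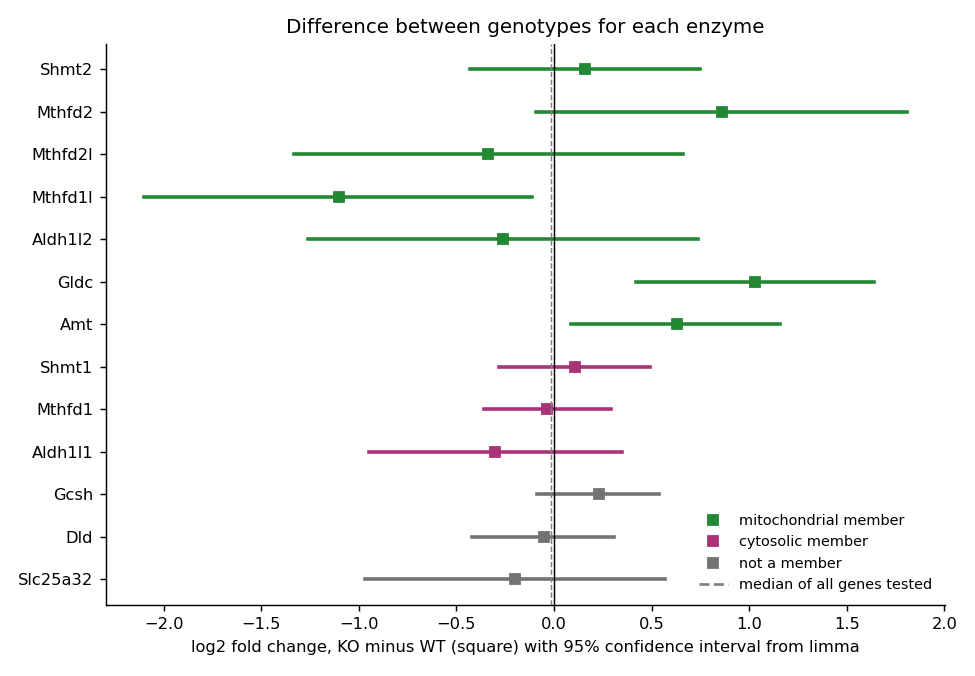
Log2 fold change between the libraries labelled KO and WT (horizontal axis) for the 10 members and 3 related genes, with 95% confidence intervals from limma. The intervals of Gldc, Amt and Mthfd1l leave out 0 before any adjustment, and those of the other 7 members span it.

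Levels were compared between genes only after division by exonic length, as log2 value per exonic kilobase over the 6 libraries. Aldh1l1 stood first at 11.37 ± 0.38 (SD, n = 6), and its lowest library, at 10.98, was above the highest of any other member. Shmt1 (9.67 ± 0.19, SD, n = 6), Mthfd1 (9.64 ± 0.11, SD, n = 6), Shmt2 (9.53 ± 0.36, SD, n = 6) and Gldc (9.11 ± 0.67, SD, n = 6) followed, with overlapping ranges. On this scale Amt was at 7.8, Mthfd1l at 6.47, Mthfd2 at 5.22, Aldh1l2 at 4.18 and Mthfd2l at 3.37. Below Aldh1l1, the range of each member over the 6 libraries overlapped with that of the next. Compared within each library, Aldh1l1 was above Shmt1 and Gldc above Amt in 6 of 6, while each other pair of neighbours changed order in at least 1 library. For both serine hydroxymethyltransferases the level per kilobase was similar in the 2 compartments, whereas Aldh1l2 lay far below Aldh1l1 in every library. The mean per kilobase of Gldc was 8.6 in WT and 9.63 in KO, the latter at the level of Mthfd1.

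**Figure D3:**
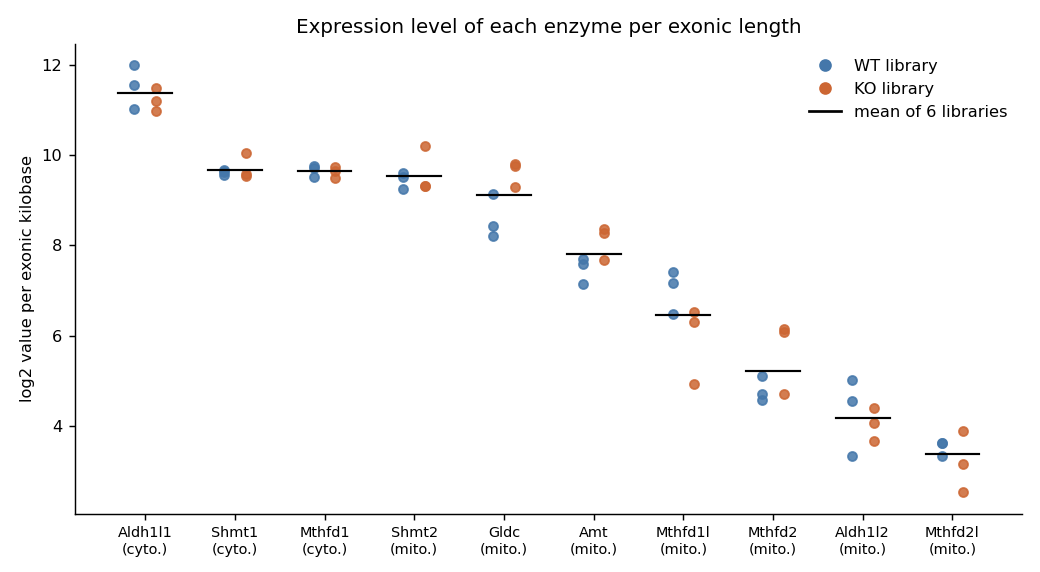
Log2 value per exonic kilobase (vertical axis) of each member in the WT (blue) and KO (orange) libraries, ordered by the mean of the 6 libraries (black bar). Aldh1l1 leads at 11.37 and Mthfd2l is last at 3.37.

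The compartment ratio was taken in each library as the mean log2 value of the 7 mitochondrial members minus that of the 3 cytosolic members. It was -4.06, -3.73 and -4.05 in the WT-labelled libraries and -3.69, -3.81 and -3.68 in those labelled KO. WT replicate 2 lay among the KO libraries, and the other 2 WT libraries lay below all 3 KO libraries. The ratio averaged -3.94 ± 0.19 (SD, n = 3) over WT libraries and -3.73 ± 0.072 (SD, n = 3) over KO libraries, a difference of 0.22 with overlapping groups. No p is given for a score over chosen members. Dividing by exonic length shifted every library alike and left that difference at 0.22. It was 0.32 without WT replicate 2, 0.2 without KO replicate 1 and 0.3 without both.

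The direction of the ratio turned with the way the members were combined. With Gldc and Amt left out, the 5 remaining mitochondrial folate enzymes gave -4.75, -4.15 and -4.67 in WT against -4.42, -4.68 and -4.65 in KO, a difference of -0.06. With Mthfd1l left out instead, the ratio was -4.13, -3.96 and -4.26 in WT against -3.73, -3.85 and -3.49 in KO, a difference of 0.42 without overlap. Mthfd1l had the most negative log2 fold change of the members and was left out after its values were seen, so a rise in this difference was bound to follow. When linear values were summed, so that the strongly expressed Gldc, Shmt2 and Aldh1l1 counted most, it was -2.15, -1.81 and -2.06 in WT against -1.57, -1.26 and -1.18 in KO, a difference of 0.67 without overlap. When the median member was taken, which among the mitochondrial members is Mthfd1l, Amt or, in KO replicate 3, Mthfd2, the difference was -0.47, and KO replicate 3 alone, at -4.21, lay outside the range of the rest.

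**Figure D4:**
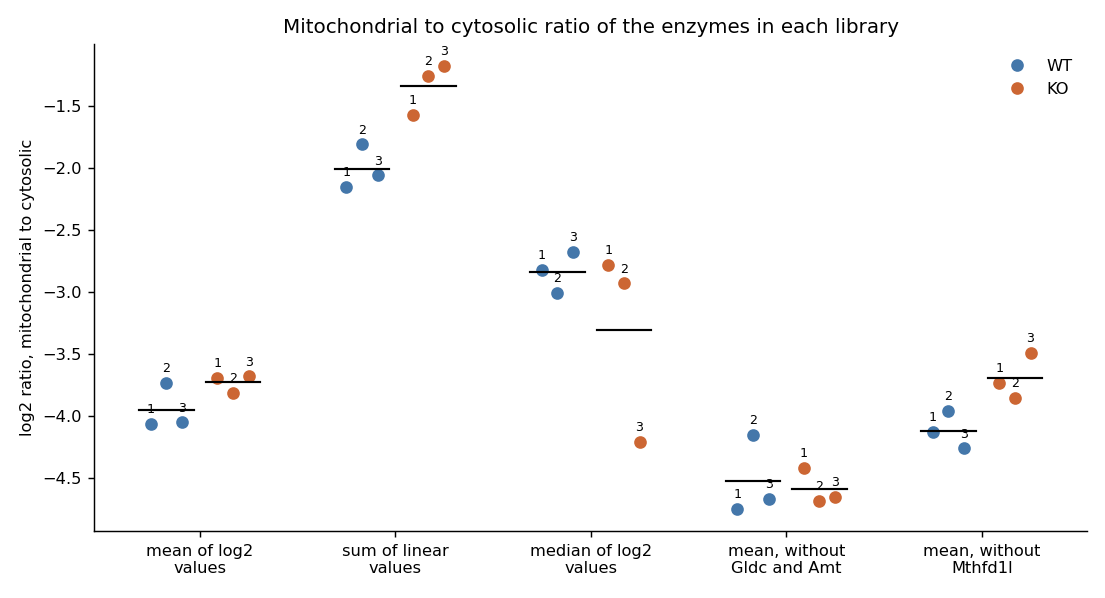
Log2 ratio of mitochondrial to cytosolic members (vertical axis) in each library under 5 ways of combining them, with WT in blue, KO in orange, replicate numbers beside the points and group means as bars. The groups are apart for the sum of linear values and without Mthfd1l, and overlap in the other 3. Leaving out Mthfd1l was chosen after the values were seen.

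Ratios were also taken between pairs of members, within a step or between steps. Groups overlapped for every pair that had been planned. For serine hydroxymethyltransferase, log2 Shmt2 minus Shmt1 was -0.33, -0.74 and -0.35 in WT against -0.53, -0.14 and -0.58 in KO, a difference of 0.052. For formyltetrahydrofolate dehydrogenase, Aldh1l2 minus Aldh1l1 ran from -7.68 to -5.44 in WT and from -7.26 to -6.25 in KO, a difference of 0.039. Both differences were smaller than the spread within groups, and their sign changed with the library left out, from -0.086 to 0.13 for the first and from -0.47 to 0.65 for the second. For the dehydrogenase and synthetase steps, the mean differences against their common cytosolic counterpart had opposite signs. Mthfd2 minus Mthfd1 was -5.77, -5.46 and -5.28 in WT against -5.4, -4.21 and -4.21 in KO, a difference of 0.89. Mthfd1l minus Mthfd1 was -2.82, -1.71 and -2.19 in WT against -2.78, -2.81 and -4.33 in KO, a difference of -1.07, or -0.55 without KO replicate 3. Both overlapped between groups. Set directly against each other, a pair chosen after the values were seen, Mthfd2 minus Mthfd1l was -2.95, -3.75 and -3.09 in WT against -2.62, -1.4 and 0.12 in KO, without overlap. Between the 2 mitochondrial dehydrogenases, Mthfd2 minus Mthfd2l was 0.58, 0.7 and 1.4 in WT against 0.45, 3.26 and 2.54 in KO. KO replicate 1 was the lowest of all and KO replicates 2 and 3 the highest, and the difference of 1.19 was 0.6 without KO replicate 2 and 2.01 without KO replicate 1. Within glycine cleavage, Gldc minus Amt differed by 0.41 with overlapping groups, with 0.62 without WT replicate 1 and 0.22 without WT replicate 3.

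The wider folate pathway was described by lists, which were chosen with earlier results of these data known. Over all genes tested, 1.79% were higher and 2.56% lower in KO at an unadjusted p under 0.05 by limma. Of 11 genes of folate uptake and the folate pool, 7 had a higher and 4 a lower mean in KO, and the median log2 fold change was 0.16. Limma called 0 of them at an adjusted p under 0.05 and 2 at an unadjusted p under 0.05. Slc19a1, the reduced folate carrier of the cell surface, was 7.22, 7.25 and 7.09 in WT against 7.63, 7.63 and 7.59 in KO, and the groups were apart (log2 fold change 0.43 with a standard error of 0.16, adjusted p by limma 0.999). Fpgs, which adds the glutamate tail that retains folate in cells and mitochondria, was 10.19, 9.91 and 9.97 in WT against 10.13, 10.78 and 10.69 in KO, with KO replicate 1 again among the WT libraries. Slc25a32, the carrier that brings folate into mitochondria, was 9.38, 9.69 and 8.58 in WT against 9.4, 9.19 and 8.45 in KO, with a log2 fold change of -0.2 (95% confidence interval -0.97 to 0.57).
Of 6 genes of folate-dependent synthesis, 3 were higher and 3 lower in KO (median -0.066), with 0 at an adjusted and 1 at an unadjusted p under 0.05 by limma. That gene was Mtrr, which keeps methionine synthase active, at 7.73, 7.85 and 7.87 in WT against 7.38, 7.51 and 6.96 in KO, and the groups were apart (log2 fold change -0.53 with a standard error of 0.19, adjusted p by limma 0.999). Of 16 genes tested of serine and glycine supply and use, 10 were higher and 6 lower (median 0.047), with 0 at an adjusted or unadjusted p under 0.05 by limma.

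**Figure D5:**
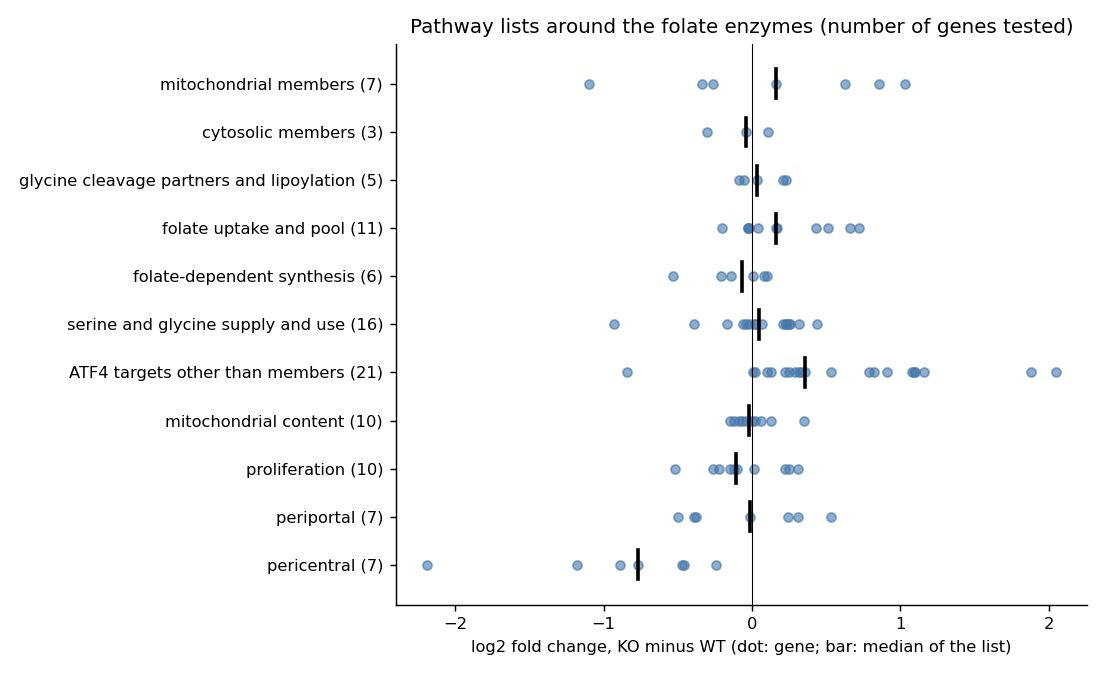
Log2 fold change between the libraries labelled KO and WT (horizontal axis) of each gene tested (dot) in the members and 9 related lists, with the list median as a black bar. The mitochondrial members spread from -1.1 to 1.03, wider than the 3 cytosolic members, and the pericentral list lies below 0 throughout.

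Values of other gene groups are given beside those of the members, and their part in the members' values was not tested. ATF4 is a stress-induced transcription factor that is known to raise several mitochondrial folate genes. Its transcript was 10.2, 10.68 and 10.93 in WT against 10.78, 10.85 and 11.04 in KO, with overlap. The paper had already named ATF4 among the upstream regulators from these same tumors, so the counts below are no independent finding. Of 21 other ATF4 targets, 20 were higher and 1 lower in KO, some barely, such as Slc7a11 (log2 fold change 0.0076) and Psat1 (0.02). Their median was 0.36, against -0.015 over all genes tested. It was 0.14 without KO replicate 3, 0.64 without KO replicate 2 and 0.55 without WT replicate 1. Without both WT replicate 2 and KO replicate 1 it was 0.85. Limma called 0 of these targets at an adjusted p under 0.05. At an unadjusted p under 0.05, 4 were higher, among them Asns, asparagine synthetase (log2 fold change 1.16), and 1 was lower, Cebpb, itself a transcription factor (-0.84). The shares over all genes were 1.79% higher and 2.56% lower. The summed log2 level of these 21 genes was 13.51 to 13.74 in WT, which overlapped with KO replicate 1 at 13.72, and 13.88 and 14.65 in KO replicates 2 and 3. The latter 2 were the libraries in which Mthfd2 lay above WT, and KO replicate 3 was also the lowest in Mthfd1l. Strongly expressed genes such as Eprs, at 11.43 to 11.96, counted most in the summed level. In KO replicate 2 single targets were mixed. Asns (9.35) and Ddit4 (8.99) lay above every WT library there, whereas Ddit3 (7.79) and Trib3 (8.07) lay within the WT range.
The tumor markers Afp and Gpc3 were also unlike among the KO libraries. Their summed log2 level was 13.75, 12.2 and 11.14 in WT against 13.13, 9.49 and 9.96 in KO. KO replicate 1 was within the WT range for these markers. Of the members, Shmt2, Mthfd2, Aldh1l2, Amt and Aldh1l1 were also within the WT range in that library, as was Fpgs. Gldc and Mthfd2l lay above every WT library in it, as did Slc19a1, whereas Mthfd1l, Shmt1 and Mthfd1 lay below every WT library. Of 4 bile duct markers 3 were lower in KO, with Krt19 at 6.11, 4.75 and 6.93 in WT against 2.86, 4.38 and 2.5 in KO (log2 fold change -2.68, adjusted p by limma 0.987). Krt7 (log2 fold change -2.2) and Epcam (-1.19) were also lower, each with an adjusted p by limma of 0.999, while Sox9 was at 0.15. The summed log2 level of the 4 markers was 7.46 to 8.96 in WT and 7.32 to 7.79 in KO. Sox9 made up most of that sum in KO replicate 1, at 7.59, so the sum says little of the others there. Genes of mitochondrial content, such as Cs and Vdac1, had a median log2 fold change of -0.023 over 10 genes, with 4 higher, 6 lower and 0 at an adjusted or unadjusted p under 0.05 by limma.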

How the data were processed

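RNA was sequenced from 3 WT and 3 Top1mt-KO liver tumors with a stranded library kit. The deposited values are log2 expression, 1 per gene symbol and library, normalized by the authors between libraries. They trimmed reads with Trimmomatic (0.36 per the labels), kept uniquely mapped reads, counted them with featureCounts and compared genotypes with DESeq2. The paper names BWA and a mouse genome called Mm 8, whereas the submitters' processing notes list STAR 2.5.1 and GRCm38. The log2 transform is not named. A transform that shrinks weak genes would understate their fold changes. Counts and depth are unknown, so no count model was run. Further columns of per-sample values numbered 0, and 3 columns without a name, with a few leftover cells, were not used.

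After removal of the 25% of genes with the lowest mean, the rest were fitted with limma 3.58.1 in R 4.3.3 (lmFit, eBayes with trend, Benjamini-Hochberg adjustment over all genes tested, threshold 0.05). Single genes were also compared by exact two-sided permutation over 20 regroupings, which allow no p below 0.1. The procedure was tested on simulated data, where shifts of the size seen in the members were not recovered at the adjusted threshold, so an absence of adjusted calls does not show that such changes are absent. Groups and replicate numbers came from the sample titles. Named genes were the members, Top1mt, Gcsh, Dld, Slc25a32, Atf4 and up to 4 genes per list by unadjusted p, besides Nnt and list examples chosen after their values were seen. Members and lists were chosen with earlier results of these data known. The lists were glycine cleavage partners, folate uptake and pool, folate-dependent synthesis, serine and glycine use, ATF4 targets, mitochondrial content, proliferation, periportal and pericentral genes, and 8 lists of cell type or tumor markers. Listed genes not found under their symbol were not analysed here.

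Exonic lengths came from GENCODE M21 basic transcripts on GRCm38 and promoter windows from RefSeq on GRCm38.p6. Basic transcripts of the members were compared with all GENCODE M21 transcripts of other genes by blastn 2.17.0, for stretches of at least 100 bases at 98% identity or more. Outside antisense overlaps this found only Gm14942 for Mthfd2l, which is near the bottom of the scale at -1.86. Alternatives were no trend, quantile normalization, no filter, a filter at the median (50%), the replicate block, each library left out, other summaries and members of the ratio, and, added after seeing the data, WT replicate 2 and KO replicate 1 left out together and Mthfd1l or Aldh1l1 left out of the ratio.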

Additional observations from a re-analysis of the deposited data

How the results depend on the processing

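Over the 22677 genes tested limma called 0 at an adjusted p under 0.05, 4 with no filter on low values and from 0 to 1 with each library left out (1 without KO replicate 1). Members at an unadjusted p under 0.05 numbered 3, then 1 without trend (Gldc) and from 1 to 4 with each library left out, and Aldh1l2 took the place of Mthfd1l without WT replicate 3, with Gldc alone left without WT replicate 2 or without KO replicate 3. The replicate block gave 4 members (Mthfd2 joined) and 912 genes at an unadjusted p under 0.05. Between WT and KO libraries of equal number the deviations correlated at -0.123, -0.0759 and 0.052, and no pairing follows from the numbers. The difference in compartment ratio, 0.22, became -0.47 by medians, 0.67 by linear sums, -0.06 without Gldc and Amt, 0.39 without Mthfd2l and Aldh1l2, 0.42 without Mthfd1l and 0.1 without Aldh1l1, and ran from 0.16 to 0.32 with each library left out. Log2 fold changes reversed for Shmt2 without KO replicate 2 (-0.14, range to 0.31 with each library left out), Shmt1 without KO replicate 2 (-0.055, range to 0.2), Aldh1l2 without WT replicate 2 (0.1, range from -0.75) and Mthfd1 without KO replicate 1 or WT replicate 3 (0.033 and 0.0092, range from -0.11). Gldc (0.83 to 1.31), Amt (0.46 to 0.84), Mthfd2 (0.6 to 1.32), Mthfd1l (-1.41 to -0.6), Mthfd2l (-0.69 to -0.0022) and Aldh1l1 (-0.55 to -0.067) kept their direction under the 12 alternatives tried. No member passed an adjusted p of 0.05 under these alternatives (smallest 0.474 by limma, for Mthfd2). The medians of glycine cleavage partners (-0.11 to 0.083) and mitochondrial content (-0.12 to 0.04) changed sign with the library left out. The causes were not tested. Depth is unknown and sets no stated limit.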

Other observations

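Zonation lists were set beside the enzymes, and no difference between the lists was tested. For the counts below, the shares over all genes at an unadjusted p under 0.05 by limma were 1.79% higher and 2.56% lower in KO. Of 7 pericentral genes tested, 7 were lower in the libraries labelled KO, with a median log2 fold change of -0.77, 0 at an adjusted p under 0.05 by limma and 4 at an unadjusted p under 0.05. Oat, ornithine aminotransferase, was 10.16, 9.69 and 10.65 in WT against 8.85, 8.85 and 9.26 in KO. Slc1a2, a glutamate transporter, was 8.89, 8.84 and 9.56 in WT against 7.68, 5.56 and 7.49 in KO. Cyp2e1 (log2 fold change -0.89) and Glul, glutamine synthetase (-0.77), overlapped between groups. Of 7 periportal genes, 3 were higher and 4 lower, with a median of -0.012 (-0.25 to 0.19 with each library left out) and 0 at an adjusted or unadjusted p under 0.05 by limma.

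Of 10 proliferation genes, 4 were higher and 6 lower in KO (median -0.11, turning to 0.1 without WT replicate 3), with 0 at an adjusted p under 0.05 by limma. At an unadjusted p under 0.05 there was 1, Mcm2, a subunit of the replication helicase, at 7.49, 7.52 and 8.08 in WT against 7, 7.18 and 7.35 in KO. Among markers of other cells, 5 of 6 stellate and fibroblast genes were lower in KO (median -0.42, with Lrat at -0.79) and 4 of 4 endothelial genes were higher (median 0.16, with Cdh5 at 0.4). Macrophage (5 genes), T cell (3 genes) and B cell (3 genes) lists had medians of 0.072, 0.34 and 0.24. Each of these lists held genes of both signs. In the T cell list Cd3e was lower (log2 fold change -1.03) and Cd3g higher (0.9) in KO, both without overlap, so its median gives no common direction. Both lay low on the scale, Cd3e at 1.14 to 3.27 and Cd3g at 2.44 to 3.83, where values are least certain. In each of these 5 lists limma called 0 genes at an adjusted p under 0.05, and at an unadjusted p under 0.05 it called Lrat and Cdh5 alone.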
